A study of Mus musculus with 3 samples.

Results

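The collagen chain genes of the mouse were examined as all probes on the array whose gene name in the deposited files is Col, a number, the letter a and a number. These were 41 genes of the 27827 gene names on the array. They had 80 probes on 98 spots of each array, of 41174 probes on 43379 spots that were not controls. Probes of a gene were kept apart, and the ratios in T cells were set beside the signal of the same probe in untreated stromal cells. Of the 80 probes, 47 for 29 genes were measured on the stromal array, 45 for 29 genes on the day 14 T cell array and 51 for 33 genes on the day 17 T cell array, where measured means well above background in both channels by the scanner software's own flag. On all 3 arrays 41 probes for 27 genes were measured, and 28 probes were measured on none. Genes with no measured probe on any array were Col4a3, Col8a2, Col9a1, Col10a1, Col13a1, Col19a1, Col24a1 and Col28a1.

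RNA was compared on 3 arrays of 2 colours, 1 array per comparison, with RNA of treated cells in Cy5 and RNA of untreated cells in Cy3 each time. The treatment was phospho-ascorbate (pAsc), a stable form of vitamin C, at 800 µM. The stromal comparison used OP9-DL1 cells, a continuously grown mouse stromal line that presents the Notch ligand Delta-like 1, labelled as osteoblast of strain B6-C3Hf1, with pAsc for 24 h and without it. The T cell comparisons used cells labelled as bone marrow and grown from C57BL/6 bone marrow progenitors on OP9-DL1 cells with the cytokines Flt3L and IL7, either for 14 days with pAsc in the last 24 h and without it, or for 17 days with pAsc in the last 72 h and without it. The T cells were thus always grown on the stromal line, and stromal cells were removed from them by letting them adhere for a short time, per the labels' protocols. The series asks how vitamin C acts on T cell development, as its title states. Without replicate arrays or swapped dyes no test was possible, and a dye effect of a probe cannot be told apart from the treatment.

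The labelled cell types were compared with markers. Of 7 osteoblast genes on the array, 6 had a probe above background in untreated stroma, and only Ibsp, a bone matrix protein gene, did not. Among the 6 were Alpl and the transcription factors of the osteoblast lineage Runx2 and Sp7. Sp7 and Dmp1 were dim there, at log2 levels of 7.57 and 7.06. Of all 41174 probes, 21343 were measured in both channels of the stromal array, so presence alone is a weak sign of the cell type. All 14 T lineage markers, each read at its brightest probe, were measured in both T cell RNAs. Of them, 11 were above background in neither channel of the stromal array, but Cd3e and Gata3 were measured there, at untreated log2 levels of 7.81 and 8.21. No spot was saturated on any array. Repeat spots of a probe differed little: the 10 spots of Col1a1 probe A_52_P525107, less flagged ones, had an SD of the log2 ratio of 0.035 in stroma (n = 9), 0.058 in day 14 T cells (n = 10) and 0.051 in day 17 T cells (n = 9). Different probes of a collagen gene differed more, with a pooled SD of 0.27 over 16 genes in stroma, 0.22 over 14 genes in day 14 T cells and 0.27 over 17 genes in day 17 T cells. These spreads hold no variation between cultures.

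Collagens are secreted or membrane-bound proteins of the extracellular matrix. Their chains repeat a unit of glycine followed by a pair of other residues, and 3 chains wind into a helix. Fibrillar collagens such as types I, II, III, V and XI form the fibres of bone, cartilage, skin and tendon. Type IV forms the network of basement membranes, types VIII and X form networks of short chains, type VI forms beaded filaments and type VII anchors basement membranes. FACIT collagens (fibril-associated collagens with interrupted helices, here types IX, XII, XIV, XVI, XIX, XX and XXII) sit on fibrils, multiplexins (XV and XVIII) lie near basement membranes, and types XIII, XVII, XXIII and XXV span the cell membrane. Ascorbate keeps the iron of prolyl and lysyl hydroxylases reduced, and these enzymes modify collagen chains after translation, a step that an RNA array does not see. Collagen chains are made mainly by mesenchymal cells such as osteoblasts and fibroblasts.

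The probes on which the comparisons turn are shown as deposited, 5′ to 3′, since probes of the same gene gave different ratios. Positions are on the mouse build mm9 per the file headers; no annotation of that build was used here, so exon and UTR are not stated. The brightest probe of Col1a2, the gene of the second chain of type I collagen, is A_51_P182303, on the plus strand at chr6:4490619-4490678. The other measured one, A_52_P424253, was designed on a cDNA clone and lies on the same strand at chr6:4463773-4463832. They are 26786 bases apart and share no run longer than 5 bases.
Col1a2 A_51_P182303: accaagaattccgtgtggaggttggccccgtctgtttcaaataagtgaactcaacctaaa
Col1a2 A_52_P424253: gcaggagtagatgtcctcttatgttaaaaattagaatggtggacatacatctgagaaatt
For Col1a1, the gene of the main chain of type I collagen, the probes A_51_P377094 at chr11:94812052-94812111 and A_52_P658611 at chr11:94799277-94799336, both on the plus strand, are shown as a pair far apart in the gene. The Col8a1 probe A_52_P282058, on the minus strand at chr16:57627033-57627092, is shown because its ratio had opposite signs in stroma and T cells.
Col1a1 A_51_P377094: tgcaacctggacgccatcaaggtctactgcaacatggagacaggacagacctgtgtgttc
Col1a1 A_52_P658611: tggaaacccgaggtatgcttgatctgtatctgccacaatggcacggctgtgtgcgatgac
Col8a1 A_52_P282058: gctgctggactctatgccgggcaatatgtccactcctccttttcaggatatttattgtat
The Col2a1 probes A_52_P216436 and A_51_P317141, on the minus strand at chr15:97806505-97806564 and chr15:97806485-97806544, overlap by 40 bases, which are in capitals, and serve as a near repeat of each other.
Col2a1 A_52_P216436: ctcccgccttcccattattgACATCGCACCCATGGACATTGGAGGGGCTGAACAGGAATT
Col2a1 A_51_P317141: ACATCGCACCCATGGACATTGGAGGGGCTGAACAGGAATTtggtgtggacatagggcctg

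Most collagen probes do not show the repeat that defines the family. A codon for glycine (GGN) followed by 2 other codons, at least 4 times in a row in some frame, was present in 3 of the 80 probes and in 13 of all 41174 probes (0.0316%). The 3 were a Col5a1 probe that spans chr2:27842243-27844666, a Col5a3 probe that spans chr9:20590066-20590795 and a Col11a2 probe that spans chr17:34189287-34189453, and the span of each is longer than the probe because it crosses a splice junction. Their glycine codons are in capitals.
Col5a1 A_52_P237371: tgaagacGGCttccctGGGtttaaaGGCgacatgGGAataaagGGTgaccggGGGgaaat
Col5a3 A_52_P503796: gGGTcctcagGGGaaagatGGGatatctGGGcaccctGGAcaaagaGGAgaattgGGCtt
Col11a2 A_52_P563285: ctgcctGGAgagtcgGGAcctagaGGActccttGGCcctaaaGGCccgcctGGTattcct
After background correction and loess normalization all 3 gave log2 ratios between -0.10 and 0.28 on each array where they were measured. Of the 3, 2 were measured on all 3 arrays. By the log ratio in the deposited files the Col11a2 probe was at 0.69 in stroma, -0.22 at day 14 and 0.12 at day 17. By the same log ratio the Col5a3 probe was at 0.61 in stroma, and the Col5a1 probe at -0.05 in stroma and at least 0.58 at day 14.

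In stromal cells, 24 h of pAsc went with higher signal of 2 collagen probes and lower signal of none at the 2-fold rule. That was 2 of 47 measured probes, where 0.328% of all 21343 measured probes were past 2-fold upward and 0.0937% downward. The collagen probes had a median log2 ratio of pAsc over untreated of 0.14, against 0.01 for all measured probes. Their ratios ran from -0.44 to 1.43, and 31 of 47 lay above 0, against 51.8% of all measured probes. At least 0.5 was reached by 7, against 2.85% of all. A ratio of -0.5 or less was reached by 0, against 4.47% of all.

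The largest stromal ratio was that of Col14a1, a FACIT collagen of dense connective tissue. Its probe A_51_P326529 had log2 levels of 9.30 with pAsc and 7.88 without it, a log2 ratio of 1.43, or 1.89 by the log ratio in the deposited files (the Agilent log ratio). The other Col14a1 probe was above background in no channel. Col1a2 probe A_51_P182303 had log2 levels of 16.72 with pAsc and 15.61 without it, a log2 ratio of 1.12. By the Agilent log ratio it was 0.69, and it was also 0.69 after the ratios of equally bright probes were subtracted as a running median, so its place past 2-fold depends on the normalization. Just below 2-fold was Col11a1, a chain of a minor fibrillar collagen, with log2 levels of 11.54 with pAsc and 10.60 without it and a log2 ratio of 0.94, or 1.02 by the Agilent log ratio.

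The other measured probe of Col1a2, A_52_P424253, was below 0 in stroma, at -0.31 (Agilent -1.22). Col1a1 gave log2 ratios of 0.46, 0.34 and 0.55 at its probes A_52_P525107, A_51_P377094 and A_52_P658611. For the first of them, with log2 levels of 16.25 with pAsc and 15.80 without it, the Agilent log ratio was 0.15. Col3a1, the chain of type III collagen, gave 0.30 at probe A_51_P515605 and 0.25 at probe A_52_P684242, and the Agilent log ratio of the brighter one was 0.02. Col2a1, the chain of cartilage collagen, gave 0.65 and 0.55 at its overlapping probes, with Agilent log ratios of 0.67 and 0.50.

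**Figure D1:**
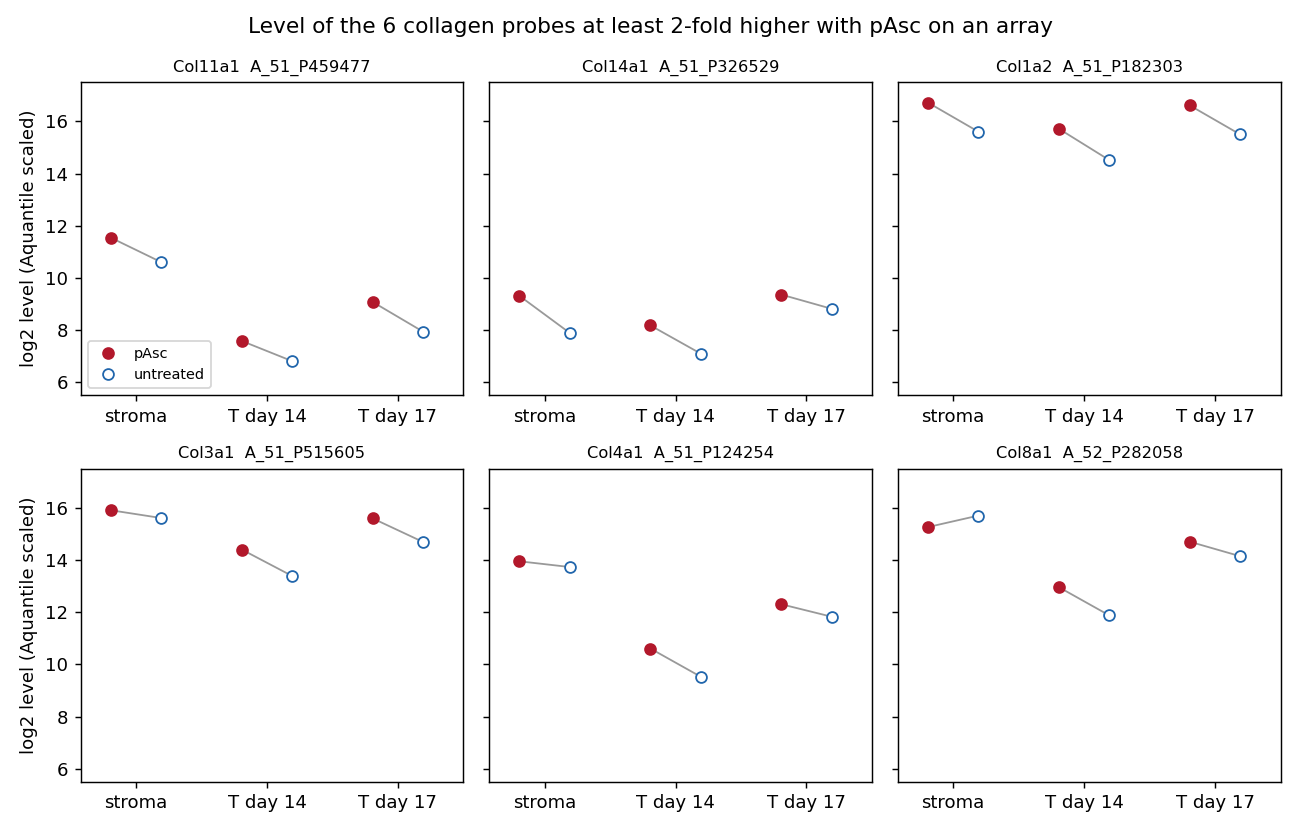
Log2 level (vertical axis, scaled between arrays) of the 6 collagen probes that were at least 2-fold higher with pAsc on an array, in pAsc (filled red) and untreated (open blue) RNA of stroma, day 14 T cells and day 17 T cells, 1 array per pair and no error bars because there were no replicates. Every probe is higher with pAsc in each pair except Col8a1 in stroma, at 15.27 with pAsc and 15.71 untreated.

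The classes of collagen did not share a median in stroma. The 20 measured fibrillar probes had a median log2 ratio of 0.27, with 16 above 0. All 7 measured basement membrane probes lay above 0, with a median of 0.22. The anchoring chain Col7a1 had log2 levels of 11.00 with pAsc and 10.37 without it, a ratio of 0.63. In contrast, the 4 multiplexin probes all lay below 0, with a median of -0.16, and both probes of Col8a1, a chain of the short-chain network, lay below 0. The 5 beaded filament probes had a median of -0.12, and the 5 FACIT probes of 0.06. The 3 transmembrane probes had a median of -0.08.

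The probes brightest in stroma within their class show the same spread. Col18a1 probe A_51_P191700, of the multiplexin that releases endostatin, had log2 levels of 14.76 with pAsc and 14.94 without it, a ratio of -0.17. Col6a1, a chain of type VI collagen, had 15.12 with pAsc and 15.25 without it, a ratio of -0.13, or -0.33 by the Agilent log ratio. Col16a1, a FACIT chain, had 14.04 with pAsc and 14.04 without it at probe A_51_P291062. Col17a1, a chain of epithelial hemidesmosomes, was dim, with 6.99 with pAsc and 6.80 without it at probe A_51_P358344. These 4 differences were smaller than the pooled SD of 0.27 between probes of a collagen gene, but by the Agilent log ratio those of Col6a1 (-0.33) and Col17a1 (0.60) were not.

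**Figure D2:**
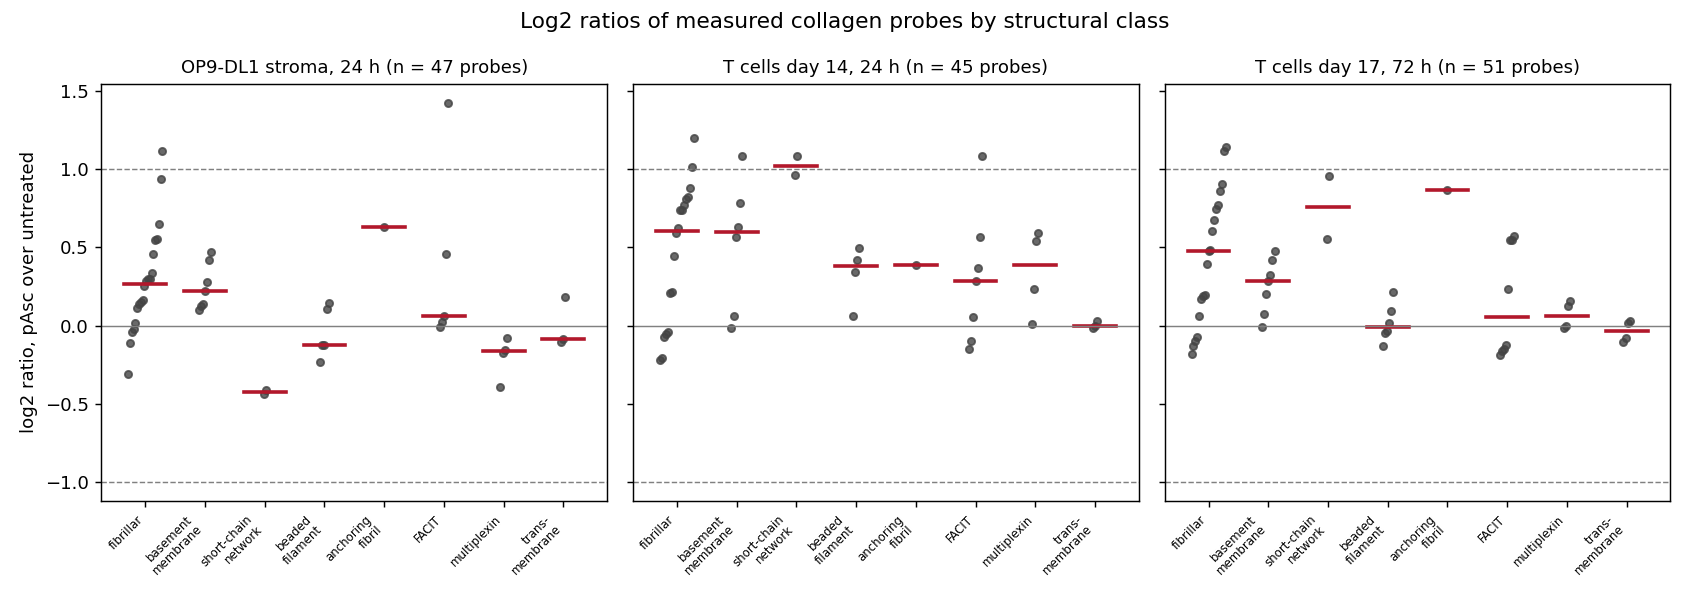
Log2 ratio of pAsc over untreated (vertical axis) of each measured collagen probe (points) by structural class, with class medians (red bars), 2-fold as dashed lines and 1 panel per array. The Col8a1 probes of the short-chain network lie at -0.44 and -0.41 in stroma and at 1.08 and 0.96 in day 14 T cells, while the fibrillar and basement membrane medians lie above 0 on every array.

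In day 14 T cells after 24 h of pAsc, 5 of 45 measured collagen probes were higher by the 2-fold rule and 0 were lower, where 0.235% of all 25568 measured probes were higher and 0.00782% lower. The median log2 ratio was 0.42, or 0.56 by the Agilent log ratio, against 0.01 for all measured probes, or -0.03 by the Agilent log ratio. Of the 45 probes, 35 lay above 0, against 52.7% of all, and 20 reached 0.5, against 3.84% of all. The lowest ratio was -0.22, where 0.391% of all probes were at -0.5 or below.

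The 5 probes came from fibrillar, basement membrane, short-chain and FACIT collagens. Col1a2 probe A_51_P182303 had log2 levels of 15.72 with pAsc and 14.52 without it, a log2 ratio of 1.20 (Agilent 0.93). Col8a1 probe A_52_P282058 had 12.96 with pAsc and 11.88 without it, a ratio of 1.08 (Agilent 1.07). Col4a1 probe A_51_P124254, of a main chain of basement membrane collagen, had 10.61 with pAsc and 9.53 without it, a ratio of 1.08 (Agilent 1.08). This Col4a1 gene overlaps Col4a2 in the reference annotation, and the Col4a2 probes gave 0.56 and 0.63. Col14a1 probe A_51_P326529 had 8.17 with pAsc and 7.09 without it, a ratio of 1.08 (Agilent 1.68). Col3a1 probe A_51_P515605 was just inside 2-fold, with 14.41 with pAsc and 13.40 without it and a ratio of 1.01 (Agilent 0.98). Just outside was the other Col8a1 probe, A_52_P292792, at 0.96 (Agilent 1.08), with log2 levels of 9.46 with pAsc and 8.50 without it.

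Several other fibrillar chains were below 2-fold in day 14 T cells but above 0 with the main processing. Col1a1 gave 0.88, 0.74 and 0.44 at its 3 probes, and by the Agilent log ratio 0.68, 0.67 and 0.67. For Col5a1 and Col5a2, chains of the collagen inside type I fibrils, the probes A_51_P414637 and A_51_P247883 gave 0.82 and 0.81. Col11a1 gave 0.77, with log2 levels of 7.57 with pAsc and 6.80 without it, but it was past 2-fold by the Agilent log ratio, at 1.25, and with an offset of 0 in the background correction, at 1.16. The fibrillar median was 0.61 over 18 probes, with 13 above 0. The basement membrane median was 0.60 over 6 probes and the FACIT median 0.28 over 7.

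The beaded filament, multiplexin and anchoring chains had medians below those of the fibrillar and basement membrane probes and above that of the FACIT probes. Col6a1 had log2 levels of 13.58 with pAsc and 13.24 without it, a ratio of 0.34, and its class a median of 0.38 over 4 probes. Col18a1 probe A_51_P191700 had 12.51 with pAsc and 11.97 without it, a ratio of 0.54, and its class a median of 0.39 over 4. Col7a1 had 8.67 with pAsc and 8.28 without it, a ratio of 0.39, and the FACIT chain Col16a1 had 12.57 with pAsc and 12.20 without it, a ratio of 0.37. The 3 transmembrane probes lay within 0.03 of 0.

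In day 17 T cells after 72 h of pAsc, 2 of 51 measured collagen probes were higher by the 2-fold rule and 0 were lower, where 0.183% of all 24597 measured probes were higher and 0.289% lower. The median log2 ratio was 0.19, or 0.25 by the Agilent log ratio, against 0.01 for all measured probes. Above 0 lay 35 of 51, against 51.0% of all, and 14 reached 0.5, against 2.9% of all. Down to -0.5 or below were 0, against 2.77% of all.

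Both probes past 2-fold belong to fibrillar chains. Col11a1 had log2 levels of 9.07 with pAsc and 7.93 without it, a log2 ratio of 1.14 (Agilent 1.35). Col1a2 probe A_51_P182303 had 16.61 with pAsc and 15.50 without it, a ratio of 1.11, which was 0.83 by the Agilent log ratio and 0.86 after the running median. Just outside 2-fold was Col8a1 probe A_52_P292792 at 0.96, with log2 levels of 11.77 with pAsc and 10.81 without it, while its other probe was at 0.56, with 14.71 with pAsc and 14.16 without it. Col3a1 probe A_51_P515605 followed at 0.91, with 15.61 with pAsc and 14.70 without it. Col7a1 was at 0.87, with 9.51 with pAsc and 8.64 without it.

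The fibrillar, basement membrane, FACIT, beaded filament and multiplexin medians were nearer to 0 in day 17 T cells than in day 14 T cells. The fibrillar median was 0.48 over 19 probes and the basement membrane median 0.29 over 7, with Col4a1 probe A_51_P124254 at 0.48 from log2 levels of 12.31 with pAsc and 11.83 without it. The FACIT median was 0.05 over 8 probes, with Col14a1 at 0.55 from 9.35 with pAsc and 8.81 without it, and Col16a1 at 0.23 from 13.59 with pAsc and 13.35 without it. Beaded filament probes had a median of -0.01 over 6, with Col6a1 at -0.04 from 14.70 with pAsc and 14.74 without it. Multiplexin probes had a median of 0.06 over 4, with Col18a1 probe A_51_P191700 at 0.16 from 14.08 with pAsc and 13.93 without it. The 4 transmembrane probes lay between -0.10 and 0.03, and Col17a1 probe A_51_P358344 had 6.58 with pAsc and 6.55 without it.

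Of the collagen probes not above background in untreated stroma, 5 were measured on a T cell array. Col20a1, Col9a3 and Col23a1 probe A_52_P431116 were measured on both T cell arrays, and Col22a1 and Col29a1 (Col6a5 in the reference table) on the day 17 array only. All were dim. Col9a3, a chain of a FACIT collagen of cartilage, had log2 levels of 6.54 with pAsc and 6.64 without it at day 14, and 6.41 with pAsc and 6.58 without it at day 17. Col20a1 had ratios of -0.15 at day 14 and -0.12 at day 17, Col23a1 of -0.01 and -0.08, and at day 17 Col22a1 was at -0.19 and Col29a1 at 0.09. With the main processing none of the ratios of these measured probes reached 0.2 in either direction, but other settings gave larger ones. By the Agilent log ratio at day 17, Col20a1 was at -0.74, Col9a3 at -0.30, Col22a1 at -0.26 and Col29a1 at 0.55. At day 14 Col20a1 was at -0.04 and Col9a3 at -0.12. The 2 measured Col23a1 probes, of which A_52_P431116 is 1, were at -0.21 and 0.34 at day 14 and at -0.16 and -0.05 at day 17. With an offset of 0 in the background correction the day 17 ratios were -0.31, -0.37, -0.46 and 0.23 in the same order, and the Col23a1 probe was at -0.18. Some probes not above background in untreated stroma were above background in T cells with pAsc only. At day 14 these were Col22a1 and another Col4a4 probe, A_52_P424594, at 0.934 and 1.11 times an untreated floor. At day 17 they were Col4a6 probe A_52_P516409, at 1.17 times, and Col10a1, with log2 levels of 6.55 with pAsc and 6.41 without it. Such a floor is either the probe's own untreated signal or the dimmest one that still counted as well above background, whichever was higher. At day 14 the untreated Col22a1 signal, at 6.36, was not dimmer than that dimmest one and still not above background. The values are therefore not strict bounds.

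The T cell arrays can be set beside each other for 44 probes. The day 17 ratio minus the day 14 ratio had a median of -0.08 on the log2 scale, against -0.02 for all probes, and 30 of 44 were below 0, against 54.0% of all. It ran from -0.60 for Col4a1 probe A_51_P124254 to 0.48 for Col7a1, so no probe differed by 1 in either direction. The stromal ratio minus the day 14 T cell ratio had a median of -0.27 over 42 probes, with 28 of 42 below 0 against 53.7% of all probes. At least 1 lower in stroma were 2 probes, both of Col8a1, where 1.17% of all probes were. Col8a1 probe A_52_P282058 had log2 levels of 15.27 with pAsc and 15.71 without it in stroma, a ratio of -0.44 (Agilent -0.67), and probe A_52_P292792 had 12.04 with pAsc and 12.46 without it, a ratio of -0.41 (Agilent -0.40).

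Collagen signal was lower in T cell RNA than in stromal RNA for most probes. In untreated day 14 T cells the level of a probe was a median of 24.2% of its own level in untreated stroma (n = 42 probes, from 5.17% to 246.6%), against 85.6% over all probes. At least 2-fold lower than in stroma were 29 of 42, against 22.9% of all probes. In untreated day 17 T cells the median was 56.1% (n = 46, from 15.7% to 190.2%), against 83.8% over all probes, and 19 of 46 were at least 2-fold lower, against 15.1% of all. None of the 46 was at least 2-fold higher, where 9.36% of all were. In T cells with pAsc the median against untreated stroma was 37.8% at day 14 (n = 47) and 62.3% at day 17 (n = 46). Of these, 29 of 47 were at least 2-fold lower at day 14, against 22.6% of all, and 12 of 46 at day 17, against 13.6%. At least 2-fold higher were 1 at day 14, against 15.7% of all, and 2 at day 17, against 9.4%. Fewer cells of a type and less RNA per cell cannot be told apart in such bulk RNA.

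Single genes show the range. Col4a1 probe A_51_P124254 stood at 11.4% of untreated stroma in day 14 T cells with pAsc and at 5.40% in those without it, and at 37.1% with pAsc and 26.6% without it at day 17. Col8a1 probe A_52_P282058 stood at 14.9% with pAsc and 7.03% without it at day 14, and at 49.9% with pAsc and 33.9% without it at day 17. Col1a1 probe A_51_P377094 stood at 19.2% with pAsc and 11.6% without it at day 14, and at 56.2% with pAsc and 37.0% without it at day 17. The much brighter Col1a1 probe A_52_P525107 gave 95.9% with pAsc and 52.1% without it at day 14, and 140.3% with pAsc and 77.3% without it at day 17. Probes of the same gene thus did not give the same share. With the main processing further probes exceeded untreated stroma in treated T cells. Col14a1 probe A_51_P326529 stood at 122.3% with pAsc and 57.7% without it at day 14, and at 277.6% with pAsc and 190.2% without it at day 17. The Col2a1 probes stood at 113.2% and 105.0% with pAsc at day 17. Col1a2 probe A_51_P182303 exceeded untreated stroma with pAsc on both days. It stood at 107.9% with pAsc and 46.9% without it at day 14, and 200.8% with pAsc and 92.8% without it at day 17. The running median of equally bright probes there was 0.43 in stroma, 0.11 at day 14 and 0.25 at day 17. The percents are not adjusted for this shift, so the place of this probe above untreated stroma at day 14 depends on the normalization. Col11a2 probe A_51_P264666 was the only one of the 42 at least 2-fold higher in untreated day 14 T cells than in untreated stroma, where 15.9% of all probes were, at 234.9% with pAsc and 246.6% without it.

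The culture day went with a difference as well. Untreated day 17 T cells were at least 2-fold above untreated day 14 T cells at 23 of 44 collagen probes and at least 2-fold below at 0, where 6.25% of all probes were above and 3.75% below. The median log2 difference was 1.03, against -0.03 for all probes. With pAsc in both, 23 of 50 were at least 2-fold higher at day 17, where 5.55% of all probes were, 0 were lower, where 5.34% of all were, and the median was 0.87. These RNAs come from different arrays and cultures, 1 of each, and time cannot be told apart from culture.

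**Figure D3:**
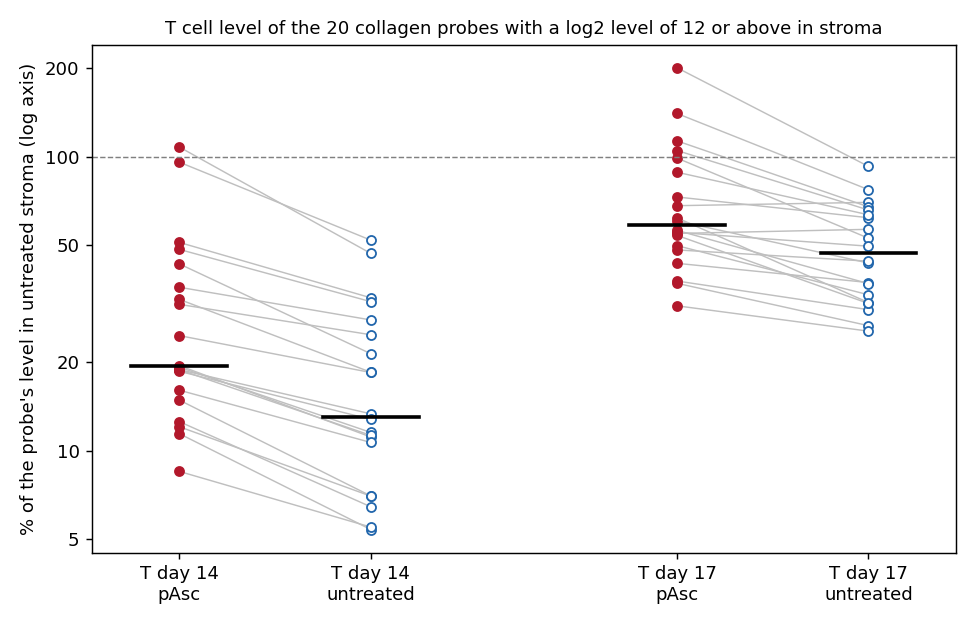
Level in T cells as a percent of the same probe's level in untreated stroma (vertical log axis) for the 20 collagen probes with a log2 level of 12 or above in untreated stroma, in pAsc (filled red) and untreated (open blue) T cells at day 14 and day 17, with lines joining the channels of an array and black bars at the medians. The medians are 19.4% with pAsc and 13.1% untreated at day 14, and 58.4% with pAsc and 46.9% untreated at day 17.

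The T cell ratio of a collagen probe was higher where the probe was brighter in stroma. Across 42 probes the day 14 ratio and the log2 level in the untreated stroma channel had a Spearman rho of 0.76 and a Pearson r of 0.78, against a rho of 0.15 over all 20576 probes. At day 17 the rho was 0.60 and the r 0.58 over 46 probes, against a rho of 0.01 over all 20967 probes. With the Agilent log ratio the collagen rho was 0.62 at day 14 and 0.55 at day 17. These are descriptions across probes of 1 array each, which share RNA, dye orientation and, for some, the gene, so they carry no p-value. The offset added before logs also draws ratios of dim probes toward 0.

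The steps in stromal level show the same. Where the log2 level in untreated stroma was 12 or above, all 20 day 14 ratios lay above 0, with a median of 0.74. The 3661 probes of all kinds in that range had a median of 0.07, with 63.3% above 0. Between 8 and 12 the median was 0.26 over 12 collagen probes, and below 8 it was -0.03 over 10, where Col14a1 at 1.08 stood apart. At day 17 the medians were 0.48 over 20 probes, 0.29 over 12 and 0.02 over 14. In the highest range 18 of the 20 lay above 0, against 52.2% of all probes there. The stromal array's own ratios in the highest range had a median of only 0.11.

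The collagen probes can also be divided by their level in T cells. The 29 that were at least 2-fold brighter in untreated stroma than in untreated day 14 T cells all had a day 14 ratio above 0, from 0.06 to 1.20, with a median of 0.59. The other 13 ran from -0.22 to 1.08, with a median of -0.01. Probes of other genes that were at least 2-fold brighter in stroma, 4691 in number, had a median of 0.16, with 79.0% above 0 and 0.703% at least 2-fold higher, whereas 4 of the 29 collagen probes were. At day 17, 18 of 19 collagen probes brighter in stroma lay above 0, with a median of 0.42, and the other 27 had a median of 0.03. The 3146 probes of other genes brighter in stroma had a median of 0.13, with 71.4% above 0. Both groups share the untreated T cell value with the ratio itself, so part of this order is built into the split.

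**Figure D4:**
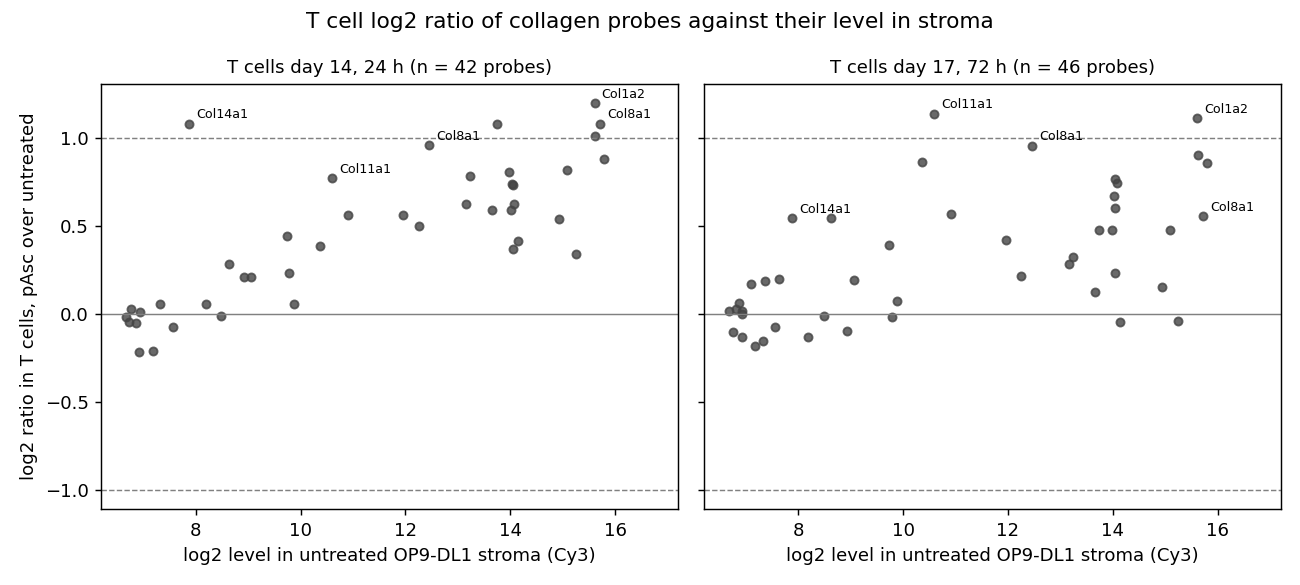
Log2 ratio of pAsc over untreated in T cells (vertical axis) against the log2 level in untreated OP9-DL1 stroma (horizontal axis, Cy3) for each collagen probe measured in T cells and above background in untreated stroma, with 2-fold as dashed lines. Probes below a stromal level of 8 lie around 0 except Col14a1, at 1.08 at day 14 and 0.55 at day 17. All 20 probes at 12 or above lie above 0 at day 14, against 63.3% of probes of all kinds in that range.

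Markers of stromal cells, each read at its brightest probe, moved with the collagens in T cell RNA. Of 20 such markers outside the collagen family, 18 were measured on the day 14 array, with a median of 0.67. All 18 had a ratio above 0, against 52.7% of all measured probes, and 4 were at least 2-fold higher, against 0.235%. At day 17, 17 of 19 measured were above 0, against 51.0% of all, and 3 were at least 2-fold higher, against 0.183%. Their day 17 median was 0.53. Their summed linear levels were 112700 with pAsc and 69901 without it at day 14, 389320 with pAsc and 272810 without it at day 17, and 753430 with pAsc and 591860 without it in stroma. The brightest with pAsc in stroma, Acta2, Myl9, Mgp and Cxcl12, had ratios of 0.57, 0.58, 1.65 and 0.36 there. By the Agilent log ratio these were 0.17, 0.16, 1.40 and 0.06, so the stromal sums depend on the normalization. Of the markers only Dcn, the proteoglycan decorin, was above background in neither channel at day 14, and at day 17 none was. Fbn1, the microfibril protein fibrillin, had log2 levels of 11.72 with pAsc and 10.45 without it at day 14, and Postn, the matrix protein periostin, had 10.25 with pAsc and 9.11 without it. In stroma the marker median was 0.16, with Mgp, an inhibitor of mineral deposition, at 1.65 and Postn at -0.74. The part of carried-over stromal RNA in the collagen ratios of T cells was not tested. T lineage markers had medians of -0.01 at day 14 and -0.13 at day 17.

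Some markers of other blood cells differed on the day 17 array as well. Of 3 measured B cell markers 1 was at least 2-fold lower, against 0.289% of all measured probes, and the median was -0.21. The lower one was Vpreb1, a surrogate light chain of B cell precursors, at -1.57 from log2 levels of 9.49 with pAsc and 11.06 without it. Of 5 measured myeloid and mast cell markers 2 were at least 2-fold lower, against the same 0.289%, but 3 were above 0 and the median was 0.07. The mast cell gene Cpa3 was at -2.13, with 10.35 with pAsc and 12.48 without it. Lyz2, the lysozyme of myeloid cells, was at -1.27, with 7.46 with pAsc and 8.73 without it. Emr1, the macrophage marker F4/80, was at 0.87 (Agilent 1.22), Csf1r at 0.33 (Agilent 0.51) and Mpo at 0.07 (Agilent -0.24). At day 14 the B cell list had a median of 0.14 over 4 genes and the myeloid list of -0.10 over 5, with 0 past 2-fold. The part of these cells in the day 17 collagen and Lair1 ratios was not tested.

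At the brightest probe of each gene, none of the 28 genes of collagen modification, folding and cross-linking reached 2-fold on any array. Leprel1 was measured on no array, and further probes of a gene were not examined. Their medians were 0.15 over 25 measured genes in stroma, 0.28 over 26 at day 14 and 0.13 over 27 at day 17, with 18, 25 and 20 above 0. In stroma P4ha1 and P4ha2, catalytic subunits of the prolyl hydroxylases that use ascorbate, were at -0.64 and -0.73. P4ha3, another and dimmer catalytic subunit, went the other way there, at 0.27 (Agilent 0.24). P4ha2 had log2 levels of 13.66 with pAsc and 14.38 without it in stroma, 14.11 with pAsc and 13.68 without it at day 14, and 13.86 with pAsc and 13.93 without it at day 17. Serpinh1, the collagen chaperone of the endoplasmic reticulum, was at 0.18 in stroma, 0.57 at day 14 and 0.85 at day 17. P4hb, the other subunit of the prolyl hydroxylase, was at 0.15 in stroma, 0.05 at day 14 and 0.08 at day 17. Pcolce, an enhancer of procollagen cleavage, was at 0.46, 0.60 and 0.26 in the same order.

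Collagen receptors and uptake genes, each at its brightest probe, were also below 2-fold, with 1 exception. Of 11 genes, 7 were measured in stroma with a median of 0.02, 8 at day 14 with 0.57 and 8 at day 17 with 0.19. Lair1, an inhibitory collagen receptor of blood cells, was at least 2-fold lower at day 17, with log2 levels of 8.27 with pAsc and 9.27 without it and a ratio of -1.01, and it was above background in neither channel of the stromal array. Ddr2, a receptor kinase for fibrillar collagen, was at -0.90 in stroma, 0.48 at day 14 and -0.02 at day 17. Itga11, an integrin chain that binds type I collagen, had 12.96 with pAsc and 12.25 without it at day 14, a ratio of 0.72.

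For 4 genes the measured probes differed by at least 0.5 on an array with the main processing. This set changes with the processing. By the Agilent log ratio Col1a2 and Col5a1 reached 0.5, and so did Col6a3 in stroma (0.63), Col23a1 at day 14 (0.55) and Col27a1 at day 14 (0.53), but not Col3a1 or Col5a3. With an offset of 0, Col6a3 (0.66) and Col27a1 (0.52) in stroma joined and Col5a3 dropped out. The Col1a2 clone probe A_52_P424253 gave -0.31 in stroma (Agilent -1.22), with log2 levels of 6.79 with pAsc and 7.10 without it, while A_51_P182303 gave 1.12. At day 17 they gave 0.17 and 1.11, and at day 14 the clone probe was above background with pAsc only. Col3a1 probe A_52_P684242 gave 0.21 at day 14, with 6.68 with pAsc and 6.47 without it, against 1.01 for A_51_P515605, but the Agilent log ratios of both were close, at 0.99 and 0.98. At day 17 the Col3a1 probes gave 0.19 and 0.91, with Agilent log ratios of 0.31 and 0.78.

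The type V chains also had lower ratios at their dim probe in T cells where both probes were measured. Col5a1 probe A_52_P237371 gave 0.21 at day 14, with log2 levels of 6.95 with pAsc and 6.74 without it, and -0.10 at day 17, with 7.54 with pAsc and 7.64 without it. Its probe A_51_P414637 gave 0.82 and 0.48, with 13.48 with pAsc and 12.66 without it at day 14. Col5a3 probe A_52_P503796 gave 0.19 at day 17 and A_51_P241995 gave 0.77, but in stroma they gave 0.28 and 0.30, and by the Agilent log ratio 0.61 and 0.22, the opposite order. Both dim probes are those printed above with glycine codons in capitals. The overlapping Col2a1 probes A_52_P216436 and A_51_P317141 stayed close, at 0.65 and 0.55 in stroma, 0.63 and 0.59 at day 14, and 0.75 and 0.67 at day 17.

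**Figure D5:**
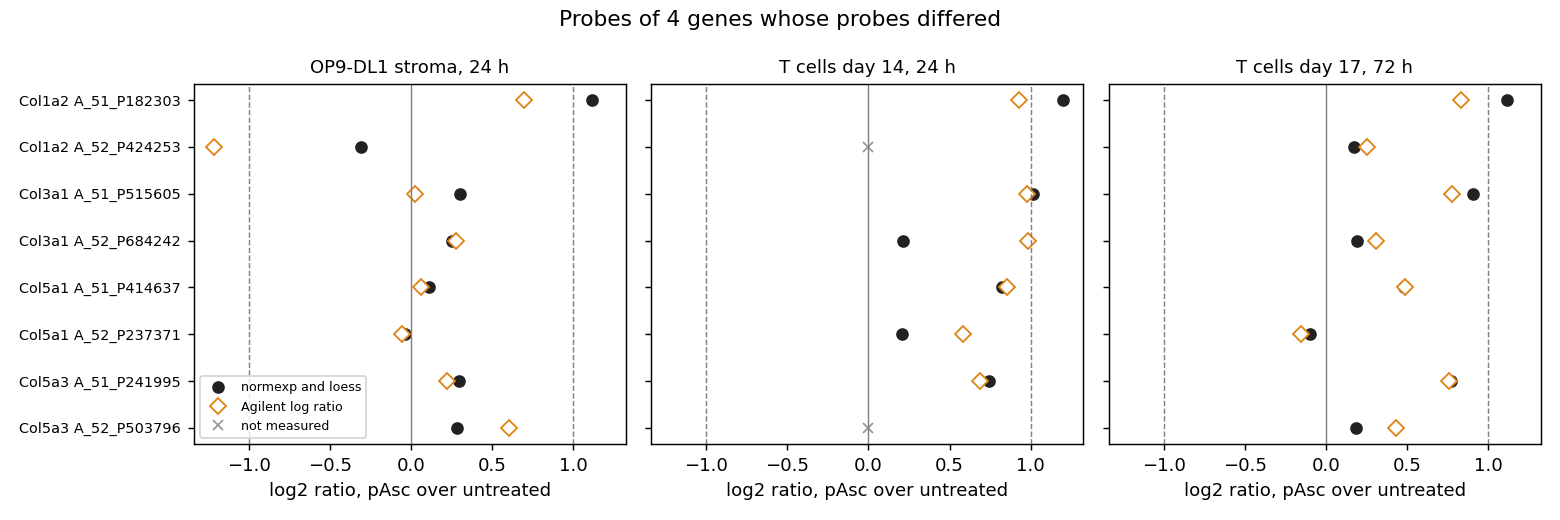
Log2 ratio of pAsc over untreated (horizontal axis) of the measured probes of Col1a2, Col3a1, Col5a1 and Col5a3 (rows) on the 3 arrays (panels), from the background-corrected and loess-normalized signals (black points) and from the log ratio in the deposited files (open diamonds), with crosses at 0 for probes not measured. At day 14 the Col3a1 probes lie at 1.01 and 0.21 as black points and at 0.98 and 0.99 as diamonds.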

How the data were processed

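The authors deposited, per the file headers, spot intensity values made with Agilent Feature Extraction 10.5.1.1 (mean signals and median local backgrounds) and log10 ratios, Cy5 to Cy3, turned to log2 here. The flags for signal above background, saturation and outliers are also the authors' deposited columns. With limma 3.58.1 in R 4.3.3, background was corrected with normexp (offset 50), arrays were normalized by loess (span 0.3, controls and flagged spots at weight 0), unflagged spots of a probe were averaged, and levels were scaled between arrays with Aquantile. The offset draws ratios and percents of dim probes toward equality, and loess leaves a positive shift in very bright ones, hence the Agilent log ratios beside them. A probe was measured if the share of its spots well above background was 0.5 or more in each channel. Calls are by size (2-fold). The number of arrays limits the precision.

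Named were probes past 2-fold, the brightest of each class, genes with probes 0.5 or more apart, probes measured in T cells but not in untreated stroma, those next to the 2-fold line, and up to 6 genes of each other list. Further probes and genes, such as P4ha1, P4ha2 and P4ha3, were added for contrast after their values were seen. The members and lists were chosen with earlier results of these data known. Of 41 gene names, 40 matched the reference symbols (GRCm38, names only). The steps were tested on simulated data. Python 3.11.15, pandas 2.3.3 and numpy 2.4.6 were used for counts.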

Additional observations from a re-analysis of the deposited data

Results flagged for a closer look

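Both measured probes of Col8a1, a chain of the short-chain network, had ratios of opposite sign in stroma and in day 14 T cells after 24 h of pAsc. The stromal log2 ratio minus the T cell log2 ratio was -1.523 for probe A_52_P282058 and -1.373 for probe A_52_P292792. With 1 array for each comparison this difference was not tested.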

How the results depend on the processing

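Of 110 values under alternatives, 1 changed sign and 19 moved, which for a median means by at least the pooled SD between probes of a collagen gene and for a count by over 1.5 times. The other 90 stayed within that, which still allows small medians to approach 0. Median centring on all probes, in place of loess, moved the median ratio of measured collagen probes to 0.9702 in stroma, 0.9056 at day 14 and 0.8172 at day 17, and the probes at least 2-fold higher to 21, 17 and 20, but all measured probes then had medians of 0.54, 0.36 and 0.48. Centring on measured probes gave a stromal median of 0.4265 and 7 higher probes in stroma and 9 at day 17. A running median left 1 higher probe in stroma and 1 at day 17. The Agilent log ratio gave 1 lower probe in stroma, the Col1a2 clone probe, and 1 higher at day 17. With no filter on dim probes the medians were 0.03649 in stroma, 0.07325 at day 14 and 0.07143 at day 17, and the T cell levels were 71.95% of stroma at day 14 and 80.86% at day 17, and the Agilent processed Cy3 signal gave 37.4% at day 17. Without probes at least 2-fold brighter in stroma, an alternative chosen after seeing the data, the day 14 median was -0.0134 with 1 higher probe, and the day 17 median was 0.01654 with 1 higher probe. This day 14 median is the 1 value that changed sign. The rule for leaving out these probes shares the untreated T cell value with the ratio, so part of that move is built in. Beyond that, the causes of the moves were not tested. No paired analysis was possible because each group is 1 RNA on 1 array. A single array without dye swap, and signal near background for the dim probes, limit every ratio.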
